A study of Bos taurus with 6 samples.

Results

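Lysosomal hydrolases and membrane proteins are the acid enzymes that take apart proteins, sugar chains and lipids in the lysosome, and the proteins of the membrane around it. The 41 genes described here were 12 proteases, 11 glycosidases, 5 sulfatases, 6 lipid hydrolases, activators and progranulin, 5 membrane proteins and 2 transcription factors that act on lysosomal genes. They were chosen by symbol, as the rows whose identifier is the word gene, a hyphen and the symbol, and all 41 were found among the 23475 genes with values.

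The cells came from subcutaneous fat of 3 premature calves and are adipocytes by their labels, while the methods of the study describe the isolated cells as preadipocytes, the precursors of adipocytes. They were transfected with the bta-miR-484 agomir (3 libraries, the agomir group) or with the agomir NC (3 libraries, the control group) and collected after 48 h for RNA sequencing. The agomir is a synthetic, modified copy of a miRNA duplex used to raise that miRNA in cells, and the agomir NC is a control molecule of the same kind. Both groups were kept in high-glucose medium with fetal bovine serum and antibiotics, and no genotype was given for either. The number of calves equals the number of samples in a group, but whether each sample was a separate animal or a culture of pooled cells was not stated, so that p-values measure the spread between these samples, which may be technical.

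Lysosomal enzymes are made in the endoplasmic reticulum, receive a mannose 6-phosphate tag in the Golgi apparatus and are carried by receptors to endosomes, where falling pH releases them. A proton pump keeps the lysosome acid, heavily glycosylated membrane proteins line its inner face, and inherited loss of single enzymes leads to storage diseases. In fat cells, lysosomes take part in autophagy and in the turnover of lipid and matrix. TFEB and TFE3 are held in the cytoplasm by mTORC1 when nutrients are plentiful and raise transcription of lysosomal and autophagy genes when they enter the nucleus.

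Levels are given in FPKM, that is, fragments per length of the transcript and per mapped fragments of the library, so that levels can be set side by side between genes. The depth of each library is unknown, and no counting error can be given. Differences are log2 fold changes of the agomir over the agomir NC on the log2(FPKM + 0.5) scale, on which changes of low genes come out too small, and were tested with limma over the 12422 genes whose mean reached 0.5 FPKM. All 41 members passed this filter. An exact permutation test of 3 libraries against 3 cannot give a two-sided p below 0.1.

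The summed level of the lysosomal genes was not the same in all libraries of a group. The FPKM values of the 41 members summed to 4026, 3909 and 3953 in the agomir libraries and to 3960.1, 4149 and 4229.7 in the agomir NC libraries, which was between 1.06% and 1.13% of the sum over all genes. Agomir NC replicate 1 was therefore at the level of the agomir libraries, and the other two control libraries were above all of them. Gene by gene, agomir NC replicate 1 was below the agomir libraries. In it, 8 of the 41 members were above their own 6-library mean, against 18, 16 and 12 in the agomir libraries. The numbers were 32 and 29 in agomir NC replicates 2 and 3. The median deviation of the members from their own mean was −0.0082, −0.024 and −0.027 (log2) in the agomir libraries and −0.039, 0.043 and 0.047 in the agomir NC libraries. For all genes tested, this median was 0.0027, 0.021 and 0.0053 in the agomir libraries and −0.0030, −0.016 and 0.0022 in the agomir NC libraries.

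The lysosomal genes were well expressed in these cells. The median member was at 31.7 FPKM (mean of 6 libraries), against 8.36 FPKM for the median of all genes tested, and 37 of the 41 members were above the latter. A level of at least 10 FPKM was reached by 35 members and one of at least 100 FPKM by 9. The 3 highest were CTSK, CD63 and PSAP, at ranks 56, 75 and 99 of the 12422 genes tested. Their ranges over the 6 libraries did not meet, with 674 to 765 FPKM for CTSK, 576 to 668 FPKM for CD63 and 492 to 519 FPKM for PSAP. Further down the order, the ranges of CTSB and LGMN overlapped, as did those of LGMN and LAMP1, while CTSH, CTSD and LAMP2 followed as separate steps. The lowest members were GM2A and TFEB, with means of 2.41 and 2.19 FPKM and overlapping ranges.

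**Figure D1:**
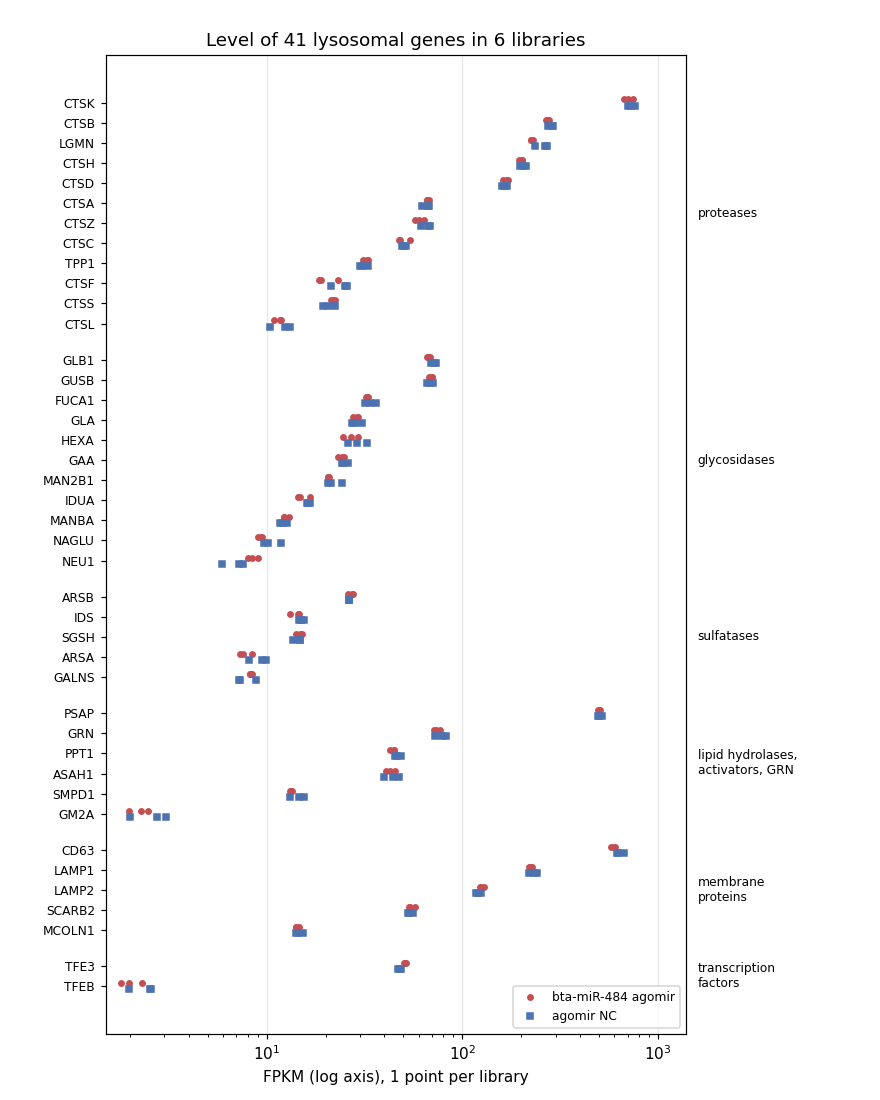
Level of each of the 41 members in FPKM on a log axis, with 1 point for each of the 3 agomir libraries (circles) and the 3 agomir NC libraries (squares), ordered by role and mean level. Levels run from about 2 FPKM (TFEB, GM2A) to 765 FPKM (CTSK), and the points of the groups lie close together for nearly all members.

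No member passed an adjusted p of 0.05 in limma with Benjamini-Hochberg adjustment, where 1 gene (0.00805%) of all genes tested did (0 without agomir replicate 1 or agomir NC replicate 2, and 2 without agomir NC replicate 3). At an unadjusted p under 0.05, 2 of the 41 members were higher with the agomir (NEU1 and TFE3) and 4 were lower (LGMN, CTSF, ARSA and CD63), while 6.63% of all genes tested were higher and 4.31% lower. In 2 members the agomir libraries were all above the control libraries (NEU1 and TFE3; 10.9% of all genes tested), and in 6 members all below (LGMN, CD63, NAGLU, GLB1, PPT1 and IDS; 6.36% of all genes tested). The log2 fold change was below 0 in 28 of the 41 members (68.3%), against 44.9% of all genes tested, in 29 with median-ratio scaling, in 27 with quantile normalization and in 26 to 30 when a library was left out, the most without agomir NC replicate 1. The median over the members was −0.051, beside 0.013 over all genes tested (−0.078 without agomir NC replicate 1 and −0.024 without agomir NC replicate 3), and single values ran from −0.26 (CTSF) to 0.29 (NEU1).

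The counts at an unadjusted p under 0.05 depended on single libraries of either group. Without agomir NC replicate 1, 10 members were lower at an unadjusted p under 0.05 and 1 was higher, while 595 of the 12403 genes then tested were lower and 828 higher. Without agomir NC replicate 2, 2 members were lower and 2 higher, beside 533 of the 12421 genes tested lower and 656 higher. Without agomir NC replicate 3, 2 members were lower and 1 higher, beside 383 of 12415 genes lower and 736 higher. Without agomir replicate 2, 1 member was lower and 1 higher, beside 450 of 12428 genes lower and 556 higher. With agomir replicate 1 or 3 left out, 3 members were lower and 1 higher. Over all genes, 497 of 12424 were lower and 723 higher without agomir replicate 1. The numbers were 450 of 12431 lower and 651 higher without agomir replicate 3. These counts over all genes stand beside those of the roles and lists below as well. The lowest adjusted p of any member was 0.310 with all libraries and 0.156 without agomir NC replicate 1, in a range from 0.156 to 0.548 over the libraries left out. With median-ratio scaling, 7 members were lower and 1 higher, and over all genes tested the split moved from 824 higher and 535 lower to 673 higher and 688 lower. It was 696 higher and 629 lower with quantile normalization, and 818 higher and 527 lower with array weights. Without a variance trend it was 760 higher and 489 lower, and with a replicate block 738 higher and 522 lower. Without a filter, 966 of 18467 genes were higher and 638 lower. These splits also stand beside the counts below.

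The intervals of the differences were narrow. The 95% interval of the fold change lay within a fold of 1.5 either way for all 41 members and within a fold of 1.3 for 36 of them. The median SD between libraries of a group was 0.063 (log2) for the members and 0.099 for all genes tested. Among genes with at least 10 FPKM it was 0.054 for the 35 members and 0.073 for the 5515 genes tested.

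**Figure D2:**
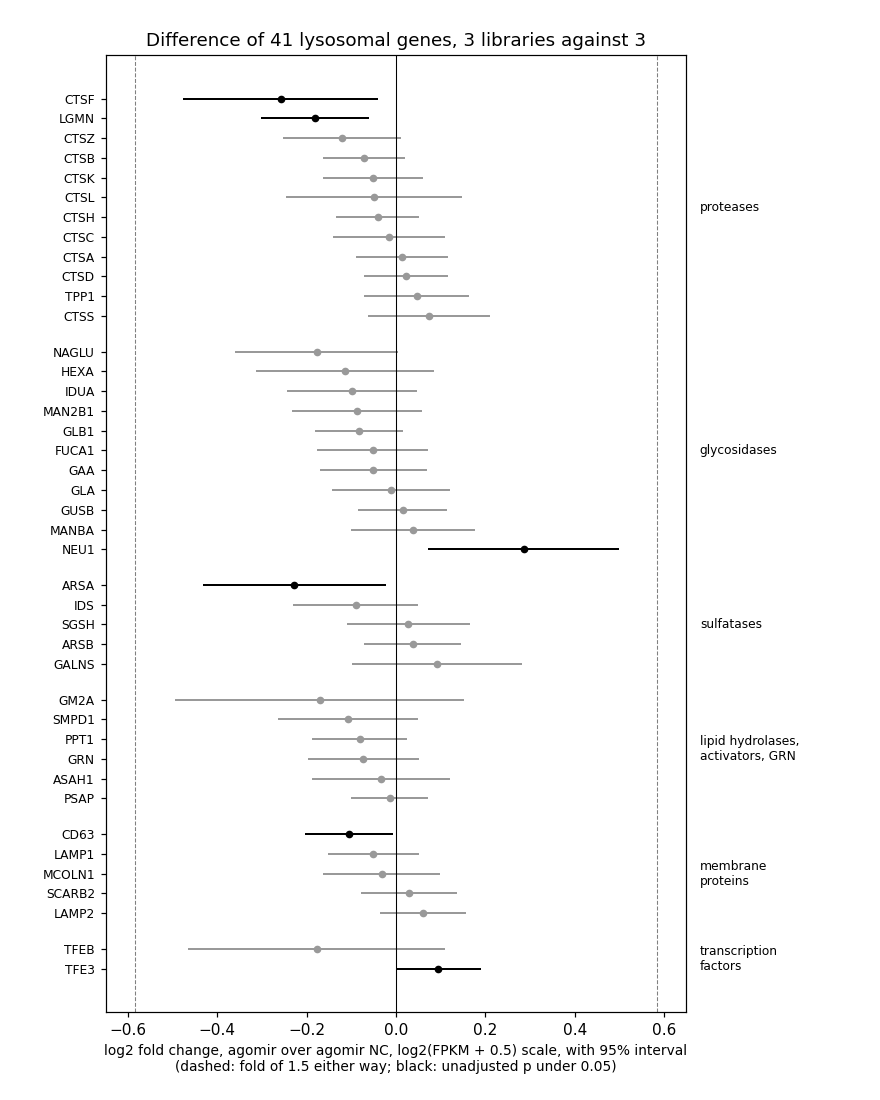
Log2 fold change of the agomir over the agomir NC on the log2(FPKM + 0.5) scale for the 41 members, ordered by role, with the 95% interval from limma (3 libraries a group). Dashed lines mark a fold of 1.5 either way, and black marks the 6 members with an unadjusted p under 0.05, of which CTSF, LGMN, ARSA and CD63 lie below 0 and NEU1 and TFE3 above.

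The 12 proteases held the most abundant lysosomal transcript and the member with the smallest p. CTSK, a cysteine cathepsin that cleaves collagen, measured 749, 674 and 705 FPKM in the agomir group and 708, 732 and 765 FPKM in the control group. The groups overlapped, and the log2 fold change was −0.051 (95% interval −0.16 to 0.058), with −0.091 and −0.015 without agomir replicates 1 and 2 and −0.078 and −0.022 without agomir NC replicates 1 and 3. LGMN, the legumain that cuts after asparagine and processes other lysosomal proteases, measured 225, 229 and 225 FPKM in the agomir group and 236, 265 and 271 FPKM in the control group. All 3 agomir libraries lay below all 3 control libraries, and agomir NC replicate 1 was the control nearest to them. The log2 fold change of LGMN was −0.18 (standard error 0.053, limma unadjusted p = 0.00678, adjusted p = 0.310), and it lay between −0.24 and −0.14 when a library was left out. CTSF, the cysteine cathepsin F, measured 23.0, 18.9 and 18.5 FPKM in the agomir group and 21.4, 25.3 and 25.9 FPKM in the control group. Here agomir replicate 1 was above agomir NC replicate 1, so that the groups overlapped, and the other two libraries of each group were well apart. Its log2 fold change of −0.26 was the lowest of the 41 members (standard error 0.096, limma unadjusted p = 0.0235, adjusted p = 0.391), and the unadjusted p was between 0.072 and 0.086 without agomir replicate 2 or 3 or agomir NC replicate 2 or 3.

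Of the other 9 proteases, none had an unadjusted p under 0.05 in limma. CTSB, a cysteine protease with endopeptidase and exopeptidase activity, ranged from 267 to 292 FPKM over the 6 libraries. CTSH, an aminopeptidase, ranged from 195 to 213 FPKM, and CTSD, the main aspartic protease of the lysosome, from 160.3 to 172 FPKM. The carboxypeptidases were at lower levels, CTSA, which also protects neuraminidase and beta-galactosidase, at 62.5 to 67.5 FPKM and CTSZ at 57.0 to 68.7 FPKM. CTSC, a dipeptidyl peptidase that activates serine proteases of immune cells, ranged from 47.6 to 54.0 FPKM, and TPP1, a tripeptidyl peptidase, from 30.0 to 32.8 FPKM. CTSS, a cathepsin known from antigen-presenting cells, was at 19.5 to 22.4 FPKM. Over the 12 proteases the log2 fold change was below 0 in 8 (9 with median-ratio scaling) and ran from −0.26 to 0.074, with a median of −0.045 (−0.019 without agomir NC replicate 3). The number lower at an unadjusted p under 0.05, which was 2, was 4 without agomir NC replicate 1, while it was 1 if agomir NC replicate 2 or 3 or agomir replicate 2 was left out. Their FPKM values summed to 1836 ± 43.0 (SD, n = 3) in the agomir group and to 1917 ± 74.3 (SD, n = 3) in the control group.

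CTSL, the cathepsin L of the files, ranged from 10.4 to 13.1 FPKM, the lowest level of the proteases. Its value is uncertain, because the RefSeq table of ARS-UCD2.0 gives CTSL also as a synonym of CTSV, a related gene with a row of its own, and reads of related genes can be shared out between them. CTSV, chosen after its values were seen, measured 63.8, 61.0 and 63.3 FPKM in the agomir group and 66.1, 66.0 and 70.4 FPKM in the control group. All agomir libraries were below the control libraries, with a log2 fold change of −0.11 (standard error 0.045, limma unadjusted p = 0.0419, adjusted p = 0.438), and the unadjusted p was between 0.056 and 0.131 without any 1 of the agomir libraries or agomir NC replicate 3. The sum of both rows was 74.2 ± 1.42 FPKM (SD, n = 3) in the agomir group and 79.5 ± 3.63 FPKM (SD, n = 3) in the control group, and the exact permutation p was 0.1, the smallest that 3 against 3 can give.

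Among the 11 glycosidases, which trim sugars from glycoproteins, glycolipids and glycosaminoglycans, NEU1 alone had an unadjusted p under 0.05 with all libraries. NEU1, the sialidase that removes terminal sialic acid, measured 8.43, 8.06 and 8.99 FPKM in the agomir group and 7.21, 5.93 and 7.56 FPKM in the control group. The groups did not overlap, and agomir NC replicate 2 was the lowest of all libraries. Its log2 fold change of 0.29 was the highest of the 41 members (standard error 0.094, limma unadjusted p = 0.0132, adjusted p = 0.350), and without agomir NC replicate 2 it was 0.19. GLB1, the beta-galactosidase whose activity near neutral pH is used as a mark of senescent cells, had the highest mean of the role over the 6 libraries, with 66.3, 67.2 and 68.4 FPKM in the agomir group and 68.9, 73.6 and 71.4 FPKM in the control group. Its agomir libraries were all below the controls by a narrow gap, with a log2 fold change of −0.083 (standard error 0.043, limma unadjusted p = 0.0827, and 0.048 without agomir NC replicate 1). NAGLU, which removes N-acetylglucosamine from heparan sulfate, was named after its values were seen, as were IDS and PPT1 below, because the groups did not overlap. It measured 9.32, 9.01 and 9.43 FPKM in the agomir group and 10.2, 11.9 and 9.69 FPKM in the control group. Agomir NC replicate 2 stood above the rest, and the log2 fold change of −0.18 (standard error 0.080, limma unadjusted p = 0.0527) was −0.096 without it, while the unadjusted p was 0.021 without agomir NC replicate 3.

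The remaining 8 glycosidases had overlapping groups. GUSB, the beta-glucuronidase, ranged from 65.8 to 70.6 FPKM over the 6 libraries and was above GLB1 in all 3 agomir libraries. FUCA1, a fucosidase, ranged from 31.9 to 36.1 FPKM, and GLA, the alpha-galactosidase lost in Fabry disease, from 27.4 to 30.9 FPKM. HEXA, the alpha chain of hexosaminidase A, was more variable, from 24.4 to 32.5 FPKM, with the lowest value in agomir replicate 3 and the highest in agomir NC replicate 3. GAA, which breaks down glycogen and is lost in Pompe disease, lay between 23.2 and 25.9 FPKM. The mannosidases MAN2B1 and MANBA were at 20.6 to 24.2 FPKM and 11.7 to 12.9 FPKM, and IDUA, an iduronidase, at 14.5 to 16.7 FPKM. In the role as a whole the log2 fold change was below 0 in 8 of 11, also with both other scalings, and its median was −0.053 (−0.094 without agomir NC replicate 1). Without agomir replicate 1 or agomir NC replicate 1 or 3, 1 glycosidase was lower at an unadjusted p under 0.05, as with quantile normalization or array weights, and 2 were lower with median-ratio scaling (GLB1 and NAGLU).

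The 5 sulfatases, which remove sulfate from glycosaminoglycans and sulfatide, were at moderate levels. ARSA, the arylsulfatase that acts on sulfatide, measured 7.26, 7.55 and 8.38 FPKM in the agomir group and 8.09, 9.44 and 9.95 FPKM in the control group. Agomir replicate 3 was above agomir NC replicate 1, so that the groups overlapped. The log2 fold change of ARSA was −0.23 (standard error 0.090, limma unadjusted p = 0.0313, adjusted p = 0.407), between −0.31 without agomir NC replicate 1 and −0.17 without agomir NC replicate 3, and its unadjusted p was between 0.076 and 0.116 without agomir replicate 1 or 2 or agomir NC replicate 2 or 3. ARSB, which acts on dermatan and chondroitin sulfate, was the highest of the role, with 26.1, 27.5 and 27.4 FPKM in the agomir group and 26.3, 26.3 and 26.3 FPKM in the control group. The control libraries of ARSB were nearly identical and the agomir libraries lay on both sides of them (log2 fold change 0.037, 95% interval −0.068 to 0.14, with 0.060 and 0.024 without agomir replicates 1 and 2). IDS, the iduronate sulfatase, measured 14.5, 14.6 and 13.2 FPKM in the agomir group and 14.6, 15.5 and 14.96 FPKM in the control group. Its groups were separate by less than the spread within either one, and the log2 fold change was −0.090 (standard error 0.062, limma unadjusted p = 0.175), with −0.044 without agomir replicate 3. SGSH, the sulfamidase of heparan sulfate, ranged from 13.6 to 15.1 FPKM, and GALNS, which acts on keratan sulfate, from 7.23 to 8.80 FPKM. Of the 5 sulfatases, 3 had a log2 fold change above 0 (2 without agomir NC replicate 3), with a median of 0.028, between −0.011 without agomir NC replicate 3 and 0.038 without agomir NC replicate 2, and 0.00093 with quantile normalization. At an unadjusted p under 0.05, 1 sulfatase was higher without agomir NC replicate 2, beside 656 of the 12421 genes then tested.

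The 6 lipid hydrolases, activators and progranulin had a log2 fold change below 0 in all 6 with all libraries, and in 5 with quantile normalization, where PSAP turned, or if agomir NC replicate 2 or 3 or agomir replicate 2 was left out. The median was −0.077, between −0.11 without agomir NC replicate 1 and −0.041 without agomir NC replicate 2. None had an unadjusted p under 0.05 in limma, and 3 of the 6 were lower at that line without agomir NC replicate 1, beside 595 of the 12403 genes then tested. PSAP, the precursor of the saposins that present sphingolipids to their enzymes, measured 505, 500.0 and 492 FPKM in the agomir group and 496, 519 and 498 FPKM in the control group. The groups of PSAP overlapped (log2 fold change −0.015, 95% interval −0.098 to 0.069), and the log2 fold change lay between −0.026 and 0.0062 when a library was left out, above 0 without agomir NC replicate 2. PPT1, which removes palmitate from proteins, measured 44.8, 42.9 and 44.8 FPKM in the agomir group and 45.4, 46.4 and 48.6 FPKM in the control group. Its agomir libraries were all below the controls, with agomir NC replicate 1 again the nearest, and the log2 fold change was −0.082 (standard error 0.046, limma unadjusted p = 0.110). GRN, the progranulin that is delivered to lysosomes together with prosaposin, ranged from 71.8 to 82.6 FPKM over the 6 libraries. ASAH1, the acid ceramidase, ranged from 39.9 to 47.5 FPKM, and SMPD1, the acid sphingomyelinase, from 13.2 to 15.6 FPKM. GM2A, the activator that lifts ganglioside GM2 out of the membrane, was low and variable, from 1.97 to 3.04 FPKM. Its lowest values were alike in both groups, and its 2 highest came from agomir NC replicates 2 and 3.

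Of the 5 membrane proteins, CD63 was lower with the agomir and the others overlapped. CD63, a tetraspanin of late endosomes, lysosomes and exosomes, measured 604, 576 and 598 FPKM in the agomir group and 619, 626 and 668 FPKM in the control group. No agomir library reached the lowest control library. The log2 fold change was −0.10 (standard error 0.043, limma unadjusted p = 0.0351, adjusted p = 0.418), and the unadjusted p was between 0.051 and 0.116 without any 1 of the agomir libraries or agomir NC replicate 3. LAMP1 and LAMP2, the main glycoproteins of the lysosomal membrane, differed in direction, with overlapping groups in both. LAMP1 ranged from 219 to 242 FPKM and had a log2 fold change of −0.051 (95% interval −0.15 to 0.048), with −0.087 and −0.017 without agomir NC replicates 1 and 3. LAMP2, which also serves chaperone-mediated autophagy, ranged from 117 to 129 FPKM and had a log2 fold change of 0.060 (95% interval −0.034 to 0.15), with 0.039 without agomir replicate 2 and 0.090 with quantile normalization, where its unadjusted p was 0.031. SCARB2, the receptor that carries glucocerebrosidase to the lysosome, lay between 52.6 and 57.2 FPKM, and MCOLN1, a calcium channel of the lysosomal membrane, between 14.0 and 15.3 FPKM. Among the 5 membrane proteins, 3 had a log2 fold change below 0 (4 without agomir replicate 2 and 2 without agomir NC replicate 2), with a median of −0.032, between −0.057 without agomir NC replicate 1 and 0.00019 without agomir NC replicate 2.

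The transcription factors differed widely in level, with means of 49.4 FPKM for TFE3 and 2.19 FPKM for TFEB. TFE3 measured 50.7, 51.8 and 50.5 FPKM in the agomir group and 48.0, 48.3 and 46.8 FPKM in the control group. The agomir libraries were all above the controls, in a small step with little spread in either group, and the log2 fold change was 0.095 (standard error 0.042, limma unadjusted p = 0.0463, adjusted p = 0.447). Under 4 of 15 alternative settings its unadjusted p was under 0.05, and without any 1 of the 6 libraries it was between 0.054 and 0.121. TFEB measured 2.30, 1.97 and 1.80 FPKM in the agomir group and 1.97, 2.53 and 2.57 FPKM in the control group. Agomir replicate 1 was within the range of the controls, and the log2 fold change was −0.18 (95% interval −0.46 to 0.11, limma unadjusted p = 0.195), with −0.11 without agomir replicate 3 and −0.28 without agomir NC replicate 1. LGMN and NEU1 kept an unadjusted p under 0.05 in all 15 alternative settings, against 11 for ARSA, 10 for CTSF and 9 for CD63, and none of these members had an adjusted p under 0.05 in any of them.

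**Figure D3:**
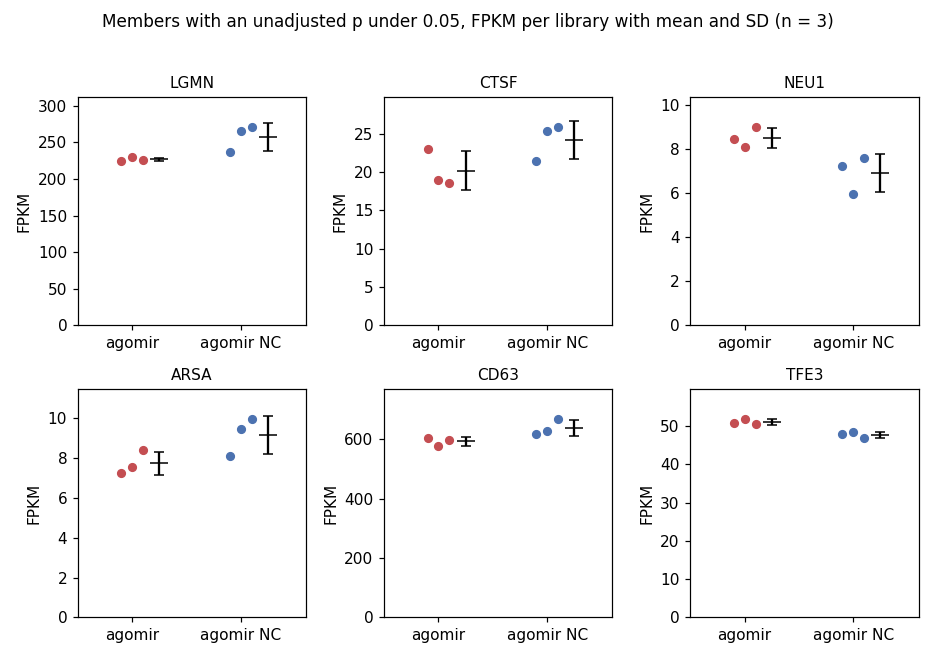
FPKM in each library (points) with mean and SD (bars, n = 3) for the 6 members with an unadjusted p under 0.05, agomir on the left and agomir NC on the right of each panel, with axes from 0. LGMN, CD63, NEU1 and TFE3 have groups that do not overlap, while in CTSF and ARSA 1 agomir library lies above the lowest control library.

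Other genes of the lysosome were taken in lists, of which no gene had an adjusted p under 0.05 in limma. PLBD2, a phospholipase B-like protein, had 341 ± 5.85 FPKM (SD, n = 3) in the agomir group and 357 ± 7.05 FPKM (SD, n = 3) in the control group. None of the 17 subunits of the proton pump that acidifies the lysosome had an unadjusted p under 0.05 in limma (log2 fold changes from −0.078 to 0.073), and 1 was lower without agomir NC replicate 2. The log2 fold change was below 0 in 9 of the 17, in 13 without agomir NC replicate 2 and in 6 without agomir NC replicate 3. In 1 subunit, ATP6V1C1, chosen after its values were seen, the agomir libraries were all below the control libraries, with 20.1, 20.6 and 19.5 FPKM in the agomir group and 20.8, 20.9 and 20.8 FPKM in the control group (limma unadjusted p = 0.329). ATP6V0D1, the highest of the subunits, averaged 184 ± 3.16 FPKM (SD, n = 3) in the agomir group and 185 ± 8.41 FPKM (SD, n = 3) in the control group. None of 16 other membrane proteins and transporters was under that line either (median 0.052, and 0.0016 without agomir NC replicate 1). With quantile normalization 2 were lower, and with a library left out 1 was higher without agomir replicate 2 or 3, 2 were higher without agomir NC replicate 1, and 1 was lower without agomir replicate 2 or agomir NC replicate 1 or 2. LAPTM4A, a small transmembrane protein of late endosomes and lysosomes, averaged 288 ± 10.4 FPKM (SD, n = 3) in the agomir group and 302 ± 16.5 FPKM (SD, n = 3) in the control group. None of the 3 cathepsin inhibitors had an unadjusted p under 0.05 in limma, and CST3, the secreted cystatin C, was at 204 ± 5.55 FPKM (SD, n = 3) against 207 ± 8.55 FPKM (SD, n = 3). Without agomir NC replicate 3, 1 of the 3 inhibitors was higher at an unadjusted p under 0.05.

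In the list of genes that sort enzymes to the lysosome, 3 of 10 were higher at an unadjusted p under 0.05 and none was lower (median log2 fold change 0.060). Over all genes tested, 6.63% were higher and 4.31% lower at this line (673 genes higher and 688 lower with median-ratio scaling). Groups did not overlap in 10.9% of all genes tested with the agomir higher and in 6.36% with it lower. All these shares stand beside the lists below as well. Genes named for an unadjusted p under 0.05 are likely to have separate groups. GGA3, an adaptor that packs mannose 6-phosphate receptors into vesicles, measured 11.3, 11.1 and 12.1 FPKM in the agomir group and 10.5, 9.96 and 9.63 FPKM in the control group (log2 fold change 0.19, standard error 0.065). GGA1, of the same family, measured 10.3, 10.9 and 10.8 FPKM in the agomir group and 9.33, 9.37 and 9.79 FPKM in the control group (log2 fold change 0.16, standard error 0.061). GNPTAB, a subunit of the enzyme that begins the mannose 6-phosphate tag, measured 15.6, 15.3 and 14.9 FPKM in the agomir group and 13.8, 14.0 and 13.6 FPKM in the control group (log2 fold change 0.14, standard error 0.054). In GGA3, GGA1 and GNPTAB every agomir library was above every control library, and the lowest adjusted p was 0.361. The count was 1 without agomir replicate 2 or 3 or agomir NC replicate 1. IGF2R, the large mannose 6-phosphate receptor and the most abundant gene of the list, averaged 92.5 ± 2.98 FPKM (SD, n = 3) in the agomir group and 88.4 ± 8.04 FPKM (SD, n = 3) in the control group, with overlapping groups.

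Genes that sense nutrients at the lysosome and the relatives of TFEB numbered 18, of which 17 were tested, since TFEC was at a mean of 0.0558 FPKM. At an unadjusted p under 0.05, 3 were higher and none was lower. In 10 of the 17 the log2 fold change was above 0, with a median of 0.024, between 0.0030 without agomir NC replicate 1 and 0.076 without agomir replicate 3. TSC1, an inhibitor of mTORC1, measured 13.7, 14.5 and 13.5 FPKM in the agomir group and 13.3, 11.8 and 11.2 FPKM in the control group (log2 fold change 0.19, standard error 0.072). MTOR, the kinase itself, measured 10.8, 11.7 and 11.4 FPKM in the agomir group and 10.3, 10.5 and 9.68 FPKM in the control group (log2 fold change 0.15, standard error 0.065). LAMTOR2, part of the Ragulator complex that anchors mTORC1 to the lysosome, measured 20.1, 22.0 and 21.5 FPKM in the agomir group and 17.3, 17.1 and 21.3 FPKM in the control group (log2 fold change 0.19, standard error 0.084, and 0.29 without agomir NC replicate 3). The groups were separate for TSC1 and MTOR, while agomir NC replicate 3 was inside the agomir range for LAMTOR2. In the whole list, groups were separate in 5 genes with the agomir higher and in 1 with it lower. The lower one was MITF, a relative of TFEB chosen after its values were seen. MITF measured 5.98, 6.98 and 6.64 FPKM in the agomir group and 7.14, 7.30 and 7.10 FPKM in the control group (limma unadjusted p = 0.122). The count of genes higher at an unadjusted p under 0.05 was 0 without agomir replicate 2, 1 without agomir NC replicate 1 or 2, and 1 with either other scaling. RRAGA, a GTPase of the same pathway and the most abundant of the list, averaged 72.7 ± 1.10 FPKM (SD, n = 3) in the agomir group and 71.9 ± 2.24 FPKM (SD, n = 3) in the control group.

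Of 19 autophagy genes, 4 were higher and 1 was lower at an unadjusted p under 0.05. In 12 of the 19 the log2 fold change was below 0 (10 to 12 when a library was left out), with a median of −0.033, which lay between −0.033 and −0.0078 when a library was left out, nearest to 0 without agomir NC replicate 2, and was −0.055 with quantile normalization. MAP1LC3B, the protein that coats autophagosomes, measured 33.1, 34.7 and 36.3 FPKM in the agomir group and 39.4, 38.0 and 38.6 FPKM in the control group. It was below all controls in each agomir library, with a log2 fold change of −0.16 (standard error 0.050, limma unadjusted p = 0.0113, adjusted p = 0.344). NBR1, a receptor for autophagic cargo, was at 29.2, 30.7 and 31.1 FPKM against 29.7, 26.1 and 25.8 FPKM (log2 fold change 0.16, standard error 0.063), with agomir NC replicate 1 inside the agomir range. UVRAG, a partner of beclin, was at 8.78, 9.22 and 8.63 FPKM against 7.75, 7.86 and 8.06 FPKM (log2 fold change 0.16, standard error 0.064), with separate groups. VPS11, a subunit of the complexes that tether lysosomes for fusion, was at 15.7, 15.6 and 14.1 FPKM against 13.9, 13.3 and 13.8 FPKM (log2 fold change 0.14, standard error 0.062), also with separate groups. The count of higher genes was 0 without agomir replicate 2 or agomir NC replicate 2, 1 without agomir NC replicate 3 and 2 without any other library, 2 with median-ratio scaling or array weights, 1 with quantile normalization or without a variance trend, 3 without a filter and 0 with the replicate block, and the lower one was lost without agomir replicate 1. SQSTM1, the cargo receptor p62, which had the highest mean of the list over the 6 libraries but overlapped the next gene, averaged 179.7 ± 9.50 FPKM (SD, n = 3) in the agomir group and 180.4 ± 6.77 FPKM (SD, n = 3) in the control group.

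The proteasome, the other large site of protein breakdown, was set beside the lysosomal genes. Of its 31 subunits, 3 were higher and none was lower at an unadjusted p under 0.05, and the median log2 fold change was 0.033 (−0.022 without agomir NC replicate 2). PSMB5, which carries the chymotrypsin-like activity, measured 65.4, 63.8 and 64.1 FPKM in the agomir group and 55.3, 56.9 and 59.7 FPKM in the control group, with separate groups (log2 fold change 0.17, standard error 0.044, limma unadjusted p = 0.00371, adjusted p = 0.288). PSMD2 and PSMC5, subunits of the regulatory particle, had separate groups as well, with log2 fold changes of 0.12 and 0.10 (standard errors 0.047 and 0.042). PSMD2, the subunit with the highest mean, averaged 118 ± 4.99 FPKM (SD, n = 3) in the agomir group and 109 ± 3.98 FPKM (SD, n = 3) in the control group. The log2 fold change was above 0 in 22 of 31 subunits (20 with median-ratio scaling), but in 11 of 31 without agomir NC replicate 2, when 1 subunit was higher at an unadjusted p under 0.05, and in 25 and 26 without agomir NC replicates 1 and 3. The count of higher subunits was also 1 with the replicate block or without a variance trend, and 2 with median-ratio scaling or without agomir replicate 3 or agomir NC replicate 1. Whether the lysosomal and the proteasome genes differed from each other in their response was not tested.

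Markers of cell types were read to check the label. The matrix genes among the fibroblast and preadipocyte markers were very high, led by COL3A1 with 7552 ± 119 FPKM (SD, n = 3) in the agomir and 7694 ± 213 FPKM (SD, n = 3) in the agomir NC libraries. The other markers of this list, PDGFRA, PDGFRB and THY1, were lower, with means of 166, 133 and 59.5 FPKM over the 6 libraries. The 9 markers of mature adipocytes summed to 11.5 ± 0.628 FPKM (SD, n = 3) in the agomir group and 12.2 ± 0.835 FPKM (SD, n = 3) in the control group, the highest of them was LPL with a mean of 3.73 FPKM, and ADIPOQ and LEP were at 0.140 and 0.0091 FPKM, so that the defining markers of mature adipocytes were low throughout. At an unadjusted p under 0.05, 1 of the 8 fibroblast and preadipocyte markers was lower (DCN) and 1 of the 5 adipocyte markers tested (FABP4), both chosen after their values were seen. The fibroblast and preadipocyte count was 2 without agomir NC replicate 1 and 0 without agomir replicate 1 or 3, and the adipocyte count was 0 without agomir replicate 3 or agomir NC replicate 1. Macrophages are rich in several cathepsins. Of 12 macrophage markers, TYROBP, C1QA and C1QB were listed at 0 in all 6 libraries and PTPRC was at most at 0.119 FPKM. The 12 summed to 7.78, 8.53 and 7.40 FPKM with the agomir and to 8.61, 8.42 and 8.70 FPKM with the agomir NC, most of it from CD14 with a mean of 6.27 FPKM, and 1 of the 2 that were tested was lower at an unadjusted p under 0.05. This was FCER1G, a receptor subunit of immune cells chosen after its values were seen, with 0.668, 0.999 and 0.717 FPKM in the agomir group and 1.18, 1.04 and 1.48 FPKM in the control group, and the count was 0 without agomir replicate 1 or 3 or agomir NC replicate 3. The 6 endothelial markers summed to 4.43 ± 0.461 FPKM (SD, n = 3) in the agomir group and 4.47 ± 0.295 FPKM (SD, n = 3) in the control group, led by VWF with a mean of 3.39 FPKM. The 5 muscle markers summed to under 1 FPKM in every library, led by DES with a mean of 0.294 FPKM, and MYOD1 and MYOG were listed at 0. In such bulk samples, fewer cells of a type and less RNA per cell cannot be told apart, and the part of the markers in the values of the lysosomal genes was not tested.

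In the RefSeq table of ARS-UCD2.0 all 41 members had an entry, and the spans of 10 of them overlapped another gene there. The protein-coding neighbours with a row in the files were low beside the members, the highest being PLTP at 9.44 FPKM over CTSA, followed by GRTP1 at 1.40 FPKM over LAMP1. Whether the sequencing kept the strand was not stated, so reads of overlapping genes may have been counted for either.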

How the data were processed

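The authors deposited FPKM values per gene for 3 bta-miR-484 agomir and 3 agomir NC libraries. The submitters' processing notes list fastp, HISAT2, StringTie and the genome build ARS-UCD1.2, with no version given in the sources used here. Read numbers were not used here, and ratios of low values between libraries (2158 genes) gave no steps of whole reads, with at most 8 genes in a bin of 0.002 (log2), so depth is unknown. Genes whose mean over the 6 libraries reached 0.5 FPKM were analysed as log2(FPKM + 0.5) and compared with limma 3.58.1 in R 4.3.3 (linear model, moderated two-sided test with a variance trend, Benjamini-Hochberg adjustment over 12422 genes). The model was tested on simulated data. For single values, the exact permutation test over the 20 labelings was used as well.

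The members and gene lists were chosen with earlier results of these data known. The rule named the 3 highest members, those with an unadjusted p under 0.05, TFEB and TFE3, and the highest member of each role; in each other list, the highest gene and at most 4 genes with an unadjusted p under 0.05; and in each marker list, the most abundant gene and those at 0. Some results on 1 of the other lists are left out of the report. Alternatives were median-ratio scaling or quantile normalization of the libraries, a pseudocount of 0.1 or 1, a filter at 1 FPKM or none, a fit without the variance trend, array weights, a replicate block and each library left out. Synonyms and neighbours of genes were read from RefSeq (ARS-UCD2.0).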

Additional observations from a re-analysis of the deposited data

How the results depend on the processing

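No member had an adjusted p under 0.05 in limma under any of the 15 alternative settings, and the lowest adjusted p of any member lay between 0.156 (without agomir NC replicate 1) and 0.548 (without agomir replicate 2). The number of members higher at an unadjusted p under 0.05, which was 2, was 1 with median-ratio scaling, 1 without a variance trend, 1 with array weights and between 1 and 2 when a library was left out. The number lower, which was 4, was 7 with median-ratio scaling, 5 with quantile normalization, 2 without a variance trend and between 1 and 10 when a library was left out, with the highest count without agomir NC replicate 1 and the lowest without agomir replicate 2. The cause was not tested. Over all genes tested, between 556 and 828 were higher and between 383 and 595 lower when a library was left out. With all libraries, 824 were higher and 535 lower. The numbers were 673 and 688 with median-ratio scaling, 696 and 629 with quantile normalization, 760 and 489 without a variance trend, and 818 and 527 with array weights. The median log2 fold change of the members was below 0 in all settings, between −0.078 (without agomir NC replicate 1) and −0.024 (without agomir NC replicate 3). Of the 30 genes whose single log2 fold changes were recomputed, 29 kept their direction in all settings. PSAP turned to 0.039 with quantile normalization and lay between −0.026 and 0.0062 when a library was left out. Many of the 30 were named for a low unadjusted p or separate groups in these same data. A kept direction was therefore likely from the choice and says little of the members as a set. Among the members not recomputed singly, CTSA turned with median-ratio scaling. Members with a log2 fold change below 0 numbered from 26 to 30 when a library was left out. The labels number the samples of both groups from 1 to 3. Deviations from the group mean, in samples with the same number, correlated across genes at −0.051, 0.053 and 0.039. Not every sample correlated best with its own number. With 3 samples a group, deviations from the group mean depend on each other, so these values cannot decide whether the numbers pair the samples. With the replicate block, 1 member was higher and 4 were lower at an unadjusted p under 0.05, and over all genes 738 were higher and 522 lower with 0 under an adjusted p of 0.05 in limma. The unknown depth limits what can be said of the lowest members, TFEB and GM2A, and 3 libraries a group limit all p-values.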
